A study of Mus musculus with 12 samples.

Results

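The Eph receptors and ephrins described here are 10 genes, chosen by name: the receptors Ephb1, Ephb3, Ephb4, Epha1 and Epha2, and the ephrins Efna1, Efna2, Efna4, Efnb1 and Efnb2. A gene entered through probe sets that carry exactly 1 gene symbol, and of several for 1 gene the brightest on average was kept. All 10 were found among the 19938 genes measured, and 11 other genes of the family were measured beside them. On GRCm38.p6 the receptor genes are Ephb1 at chr9:101922128-102354693, Ephb3 at chr16:21204620-21223309, Ephb4 at chr5:137350109-137374522, Epha1 at chr6:42358487-42373314 and Epha2 at chr4:141301221-141329384. The ligand genes are Efna1 at chr3:89271730-89280951, Efna2 at chr10:80179482-80190010, Efna4 at chr3:89333393-89338028, Efnb1 at chrX:99136061-99149022 and Efnb2 at chr8:8617235-8661242.

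Expression was measured on 12 Affymetrix arrays of colon tumor biopsies, with a late and an early sample from a single tumor of each of 6 mice. Every mouse was an SWR x C57BL/6 F1 hybrid carrying Apc Min/+, a germline truncation in a copy of the Wnt pathway suppressor Apc, and had been given 2 treatments with 4% dextran sodium sulfate, which damages the colon epithelium, in its drinking water around weaning. Mice 1755 and 3407 were female and the other mice male. The late biopsies came from 3 mice whose tumor was finally read as intramucosal carcinoma (mice 2201, 3407 and 3413; age 227 ± 35.2 days, SD) and 3 whose tumor was read as adenoma (mice 1755, 1803 and 1805; age 333 ± 86.4 days, SD). The early biopsies were not given a pathology and take that of the later sample from the same tumor; they were taken at 99.7 ± 15.5 days in the carcinoma mice and 89.0 ± 4.4 days in the adenoma mice (SD, n = 3 each). No untreated mice and no normal colon are among the samples analysed here, so values are those of chemically injured, Apc-mutant tumors throughout.

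Eph receptors are receptor tyrosine kinases of the cell surface, and their ligands, the ephrins, are themselves bound to the membrane of the neighbouring cell, by a lipid anchor in the A class and by a transmembrane segment in the B class. Contact sends signals into both cells and commonly makes them part, which draws borders between cell populations. In the intestine EphB receptors are targets of Wnt signalling that are high at the crypt base, ephrin-B1 and ephrin-B2 are higher towards the surface, and this opposition keeps dividing cells in their place. In blood vessels Efnb2 marks arteries and Ephb4 veins, and Epha2 with its ligand Efna1 is found in many epithelia.

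The promoters of 5 members on which the results below turn are printed as the 250 bases before the start site, from RefSeq sequence on GRCm38.p6, read 5′ to 3′ on the strand of the gene. Capitals mark matches, on either strand, to GGGCGG (the GC box), CCAAT (a box named by its letters), CTTTGAT and CTTTGAA (TCF/LEF, the factors through which Wnt signalling acts) and GTGGGAA (RBPJ, the Notch factor). They lie at chr10:80179232-80179481 (plus strand), chrX:99135811-99136060 (plus), chr8:8661243-8661492 (minus), chr5:137349859-137350108 (plus) and chr3:89338029-89338278 (minus).
Efna2: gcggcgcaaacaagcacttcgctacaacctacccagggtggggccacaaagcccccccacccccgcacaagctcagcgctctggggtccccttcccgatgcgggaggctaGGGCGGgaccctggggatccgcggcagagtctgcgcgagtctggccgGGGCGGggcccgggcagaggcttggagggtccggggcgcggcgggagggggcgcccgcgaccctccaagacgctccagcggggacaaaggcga
Efnb1: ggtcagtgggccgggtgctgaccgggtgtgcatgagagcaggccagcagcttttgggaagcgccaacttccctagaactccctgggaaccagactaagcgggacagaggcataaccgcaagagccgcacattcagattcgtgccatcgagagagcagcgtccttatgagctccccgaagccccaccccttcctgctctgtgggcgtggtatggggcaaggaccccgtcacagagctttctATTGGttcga
Efnb2: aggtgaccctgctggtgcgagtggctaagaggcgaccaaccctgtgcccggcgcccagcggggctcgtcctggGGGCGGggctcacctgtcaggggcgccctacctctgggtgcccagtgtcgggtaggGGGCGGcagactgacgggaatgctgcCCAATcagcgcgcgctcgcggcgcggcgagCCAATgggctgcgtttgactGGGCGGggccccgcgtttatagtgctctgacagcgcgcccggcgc
Ephb4: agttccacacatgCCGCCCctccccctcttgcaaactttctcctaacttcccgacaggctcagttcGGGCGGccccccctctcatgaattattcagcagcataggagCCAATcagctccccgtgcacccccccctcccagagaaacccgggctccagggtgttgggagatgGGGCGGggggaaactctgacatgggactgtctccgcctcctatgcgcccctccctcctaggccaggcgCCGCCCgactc
Efna4: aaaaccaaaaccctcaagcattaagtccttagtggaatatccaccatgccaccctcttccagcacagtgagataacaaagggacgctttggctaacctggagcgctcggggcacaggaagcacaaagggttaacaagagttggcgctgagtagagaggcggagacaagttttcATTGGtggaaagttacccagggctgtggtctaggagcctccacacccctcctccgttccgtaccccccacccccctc

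A GC box was present in this window in 7 of the 10 members, against 32.7% of 32851 promoters of the same length, and a CCAAT box in 5 of 10, against 33.8%. Members were counted by gene, over 11 windows, and the shares by promoter. The G and C content was 54.0 to 73.6% in the members' windows, against a median of 52.4% over all promoters. Among the printed promoters, Ephb4 held 4 GC boxes and 1 CCAAT box, Efnb2 held 3 and 2, and Efna2 held 2 GC boxes alone. Efnb1 and Efna4 each held a single CCAAT box, on the opposite strand, and no GC box. Of the TCF/LEF sequences, CTTTGAA was found in the Epha2 window alone (4.5% of all promoters) and CTTTGAT in none of the members (3.2%), and the RBPJ sequence was found in none (5.4%). These letters describe the windows and say nothing of binding.

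The arrays had medians of 7.62 to 7.80 log2 and differ in a further respect. The submitters' sample numbers run from 155 to 255 for the early arrays of mice 1755, 1803, 1805 and 2201 and from 319 to 379 for the other 8 arrays, here called array groups. Those 4 mice therefore have an array in each group, whereas mice 3407 and 3413 have both arrays in the second. Epithelial markers were plentiful in every group: the mean of 12 such genes was 12.08 to 12.23 log2 in late carcinoma biopsies, 12.18 to 12.75 in late adenoma biopsies, 12.04 to 12.50 in early carcinoma biopsies and 12.38 to 12.64 in early adenoma biopsies. In bulk biopsies, fewer cells of a type and less RNA per cell cannot be told apart.

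Over the 12 arrays the SD of a member was 0.16 log2 (Ephb1) to 0.34 log2 (Epha2), and the mean level of 8 members lay at the 61.3 to 90.6 percentile of all genes, the exceptions being Ephb1 (percentile 26.2) and Efna2 (percentile 40.2). Probe sets differ in brightness, so members are not ranked against each other by level.

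**Figure D1:**
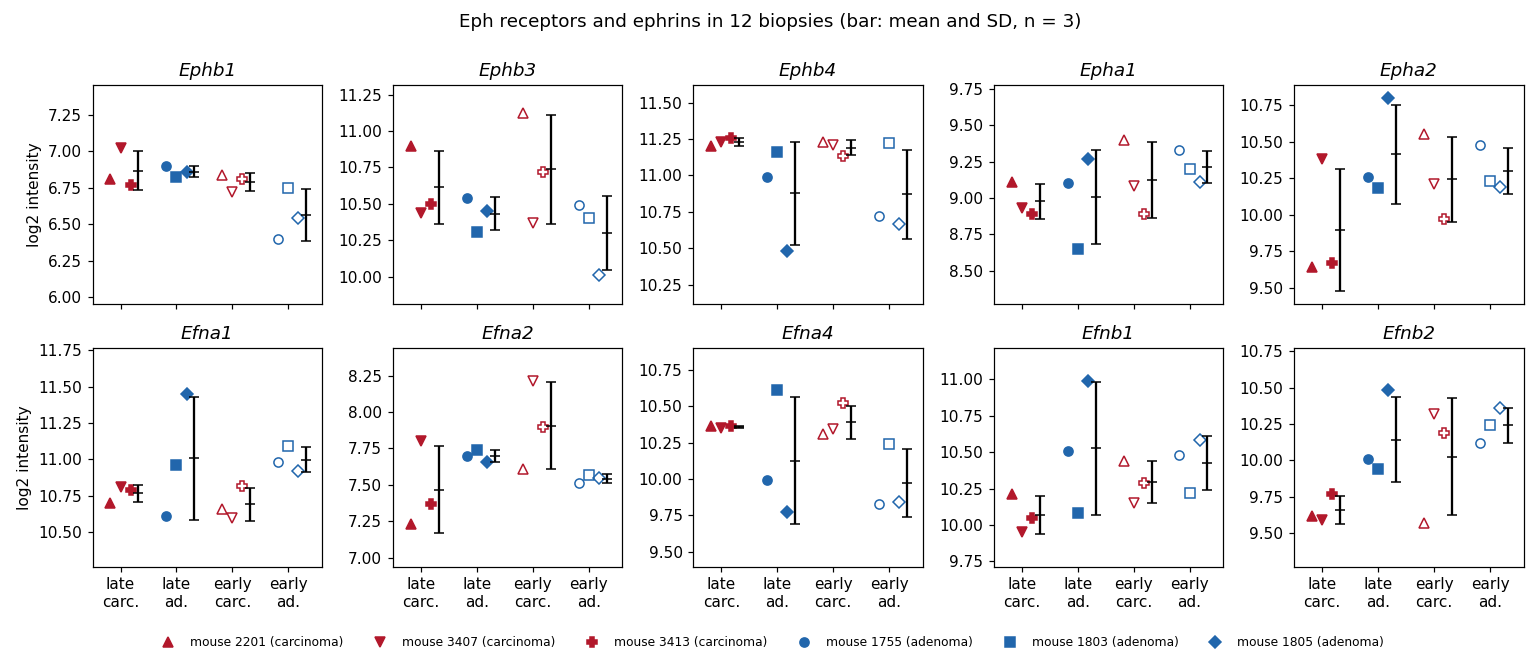
Level of each member (log2 intensity, same span on every vertical axis) in late carcinoma, late adenoma, early carcinoma and early adenoma biopsies; each symbol is a mouse, filled for late and open for early biopsies, and the bar gives the mean and SD of 3. In Efna2 the late adenoma values sit tightly together at 7.66 to 7.74, while the early carcinoma values reach 8.21.

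The first comparison asked how the members differed between late and early samples of a tumor, in 6 mice. No member passed the test: limma, with mouse as a block and Benjamini-Hochberg adjustment over all genes, called 0 of 10 members and 0 of 19938 genes (0%) at an adjusted p under 0.05. At an unadjusted p under 0.05 it took in 0 of 10 members, against 14.7% of all genes. Estimates ran from -0.23 (Efnb2) to 0.18 (Ephb1) with a median of -0.03, and the median of all genes was -0.02. Late estimates were above early ones for 5 members and below for 5, and 0 went the same way in 6 of 6 mice, against 2.59% of genes higher and 5.18% lower in every mouse.

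Among the receptors, Ephb3, the receptor of the crypt base, had a lowest, median and highest level of 10.31, 10.48 and 10.90 log2 in late biopsies and of 10.01, 10.44 and 11.12 in early biopsies. Its difference was 0.01 (SE 0.0925, 95% interval -0.21 to 0.22), and the late values lay within the range of the early ones. Ephb4, the venous receptor that epithelium also expresses, was at 10.48, 11.18 and 11.26 in late and at 10.67, 11.17 and 11.23 in early biopsies. Its difference was 0.02 (SE 0.0669, interval -0.13 to 0.18).

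Ephb1, a receptor for B-class ephrins, was the member nearest to a higher level late, at 6.77, 6.84 and 7.02 in late biopsies and 6.40, 6.73 and 6.84 in early biopsies (difference 0.18, SE 0.0842, limma adjusted p = 0.362). It was higher in 4 of 6 mice, and a dimmer probe set of the same gene gave 0.06, with r = 0.14 between the probe sets over the arrays. Epha1 was at 8.65, 9.02 and 9.27 late and 8.89, 9.15 and 9.40 early, a difference of -0.18 (SE 0.0917, limma adjusted p = 0.408). Epha2, a receptor of epithelial cells, had the widest spread of change, from -0.92 in mouse 2201 to 0.61 in mouse 1805, around a mean of -0.12 (SE 0.174).

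Among the ligands, Efnb2 was at 9.59, 9.85 and 10.48 log2 in late biopsies and 9.57, 10.22 and 10.36 in early biopsies. It was lower late in 4 of 6 mice, by 0.11, 0.29, 0.73 and 0.43 in mice 1755, 1803, 3407 and 3413, and the groups overlapped (difference -0.23, SE 0.114, limma adjusted p = 0.39). The difference was -0.13 without mouse 3407, and -0.58 with a term for the array group, which leaves the estimate to mice 3407 and 3413, both carcinoma mice. The same term gave -0.47 for Efna2 and -0.22 for Efnb1, and the limma adjusted p was 1 for all 3. Without the term, Efnb1, its neighbour in the B class, differed by -0.06 (SE 0.0938), Efna1 by 0.04 (SE 0.109), Efna2 by -0.14 (SE 0.117) and Efna4 by 0.06 (SE 0.075). For Efna4 the 95% interval was -0.12 to 0.23.

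Efnb2 and Ephb4 are also vessel genes, and vessel markers were compared between the same biopsies. All 14 endothelial genes of a list were higher in the late biopsies, 11 of them at an unadjusted p under 0.05 and 0 after adjustment, with a median of 0.84. The list's mean level was 9.56 to 9.92 log2 in late and 8.34 to 9.89 in early biopsies. Late minus early was 1.03 to 1.38 for this list in the 4 mice whose pairs cross the array groups, and 0.04 and -0.13 in mice 3407 and 3413. Of 12 genes of arteries and veins 10 were higher and 2 lower late, 6 of the higher ones at an unadjusted p under 0.05 and 0 after adjustment, with a median of 0.27. Those of smallest p were Nrp2, a semaphorin and VEGF co-receptor (0.71), Ackr1, a chemokine-binding protein of venules (0.60), Gja4, an arterial gap junction protein (0.35), and Aplnr, the apelin receptor (1.01), with limma adjusted p of 0.235 to 0.274. The lower genes, named after their values were seen, were the arterial genes Sox17 (-0.62) and Bmx (-0.17). In the same 4 mice late minus early was -0.29 to 0.12 for Efnb2 and -0.19 to 0.26 for Ephb4. Among other cell type lists, 11 of 11 fibroblast and pericyte genes (median 0.68) and 6 of 6 smooth muscle genes (0.35) were higher late. So were 10 of 11 leukocyte genes (0.30), 4 of 12 epithelial genes (-0.02) and 1 of 4 nerve and glia genes (-0.03). Of surface colonocyte genes 4 were higher and 8 lower (-0.26), and of Wnt target and crypt base genes 4 were higher and 11 lower (-0.15). In each of these lists 0 genes were past the adjusted threshold in limma. The part of these cells in the members' values was not tested.

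Of the 11 other Eph and ephrin genes, 6 were higher and 5 lower late, 0 passed the adjusted threshold, and 2 in each direction had an unadjusted p under 0.05. Ephb6, a receptor whose kinase domain is inactive, was at 8.59, 9.68 and 10.02 log2 late and 8.86, 10.07 and 10.52 early (difference -0.33, SE 0.0842), lower in 5 of 6 mice. Epha7, a receptor of A-class ephrins, differed by -0.56 (SE 0.165), Efna5, an A-class ligand, by 0.43 (SE 0.141), and Epha3, a receptor of A-class ephrins, by 0.56 (SE 0.228). Limma adjusted p for these 4 was 0.24 to 0.323.

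Of 31 measured genes listed as partners in Eph and ephrin signalling, 17 were higher and 14 lower late. Among them 3 in each direction had an unadjusted p under 0.05, and 0 passed after adjustment. Fyn, a Src-family kinase, differed by 0.31 (SE 0.0621), Pik3r1, a regulatory subunit of PI3 kinase, by 0.26 (SE 0.051), and Vav2, an exchange factor that Eph receptors recruit, by -0.32 (SE 0.0796), with limma adjusted p of 0.206 to 0.235. In adenoma tumors alone 7 partners were higher and 6 lower at an unadjusted p under 0.05, again with 0 after adjustment.

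The change was then taken within each final pathology, in a single fit. In adenoma tumors 8 of 10 members were higher and 2 lower in the late biopsy, with a median of 0.11 against -0.01 over all genes. Of all 19938 genes, 9412 were higher and 10526 lower there. Without mouse 1805 the adenoma estimates of Ephb3 (-0.02), Epha2 (-0.13), Efna1 (-0.25) and Efnb1 (-0.06) were below 0. In carcinoma tumors 3 members were higher and 7 lower, with a median of -0.14 against -0.03. Of all genes, 7933 were higher and 12005 lower there. limma called 0 of 10 members in either, against 0.125% of genes in adenoma and 0% in carcinoma tumors. At an unadjusted p under 0.05 it took in 1 of 10 in adenoma (Ephb1; 18% of genes) and 1 of 10 in carcinoma tumors (Efna2; 4.3%).

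Efna2, a lipid-anchored A-class ligand whose promoter is the first of those printed above, had the lowest estimate among the members for the difference of changes by pathology. In carcinoma tumors it was at 7.23, 7.80 and 7.37 log2 in the late biopsies of mice 2201, 3407 and 3413, against 7.61, 8.21 and 7.90 in their early biopsies. In adenoma tumors it was at 7.70, 7.74 and 7.66 in the late biopsies of mice 1755, 1803 and 1805, against 7.51, 7.57 and 7.55 in the early ones. It was thus lower in 3 of 3 carcinoma mice, where 16.9% of genes were lower in every mouse, and higher in 3 of 3 adenoma mice, where 17% of genes were higher. Members lower in 3 of 3 carcinoma mice were Epha1, Efna2 and Efnb1, 3 of 10, and those higher in 3 of 3 adenoma mice were Ephb1 and Efna2, 2 of 10. Epha1 counts by values of -0.30, -0.15 and 0.00 in mice 2201, 3407 and 3413, the last a fall below the rounding. Of the 10, 0 were higher in 3 of 3 carcinoma mice (9.73% of genes) and 0 lower in 3 of 3 adenoma mice (22.4%). The change of Efna2 was -0.44 in carcinoma (SE 0.07, limma adjusted p = 0.952) and 0.15 in adenoma tumors (SE 0.07, adjusted p = 0.319).

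The difference of the changes of Efna2 was -0.59 (SE 0.099, 95% interval -0.83 to -0.36), and after adjustment over all genes it did not pass (limma adjusted p = 0.561). Opposite directions of this kind, lower late in all 3 carcinoma and higher late in all 3 adenoma mice, were seen in 1 of 10 members and in 1.71% of all genes, and the reverse in 0 members and 1.19% of genes. The carcinoma change was -0.38 in mouse 2201, whose pair crosses the array groups, and -0.41 and -0.53 in mice 3407 and 3413, whose pairs lie within the second. All adenoma pairs cross them, so no adenoma value within an array group can be given. A term for the array group gave -0.53. Its size comes from mouse 2201 against mice 3407 and 3413, so it cannot separate the adenoma change from the array group. The late biopsies were also taken at unlike ages, 200 to 267 days in carcinoma and 234 to 395 days in adenoma mice. The part of age in differences by pathology was not tested.

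**Figure D2:**
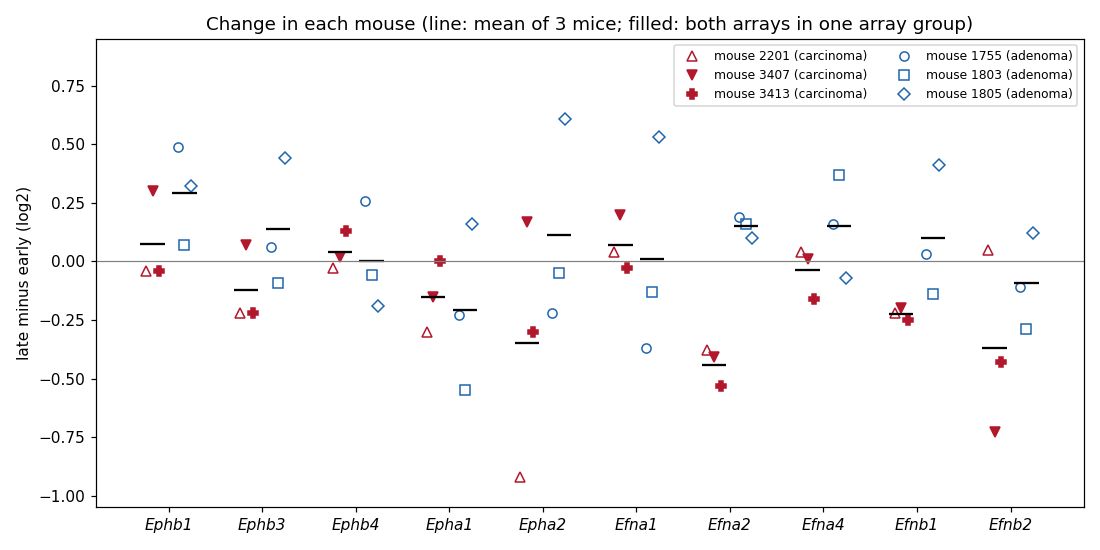
Late minus early (log2) in each mouse for the 10 members, carcinoma mice (red) left of adenoma mice (blue), with a line at the mean of 3; filled symbols are pairs within an array group. The Efna2 points of carcinoma mice all lie at -0.38 or below and those of adenoma mice at 0.10 or above.

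Efnb1 was lower in the late biopsy of 3 of 3 carcinoma mice, by 0.22, 0.20 and 0.25, while late minus early was 0.03, -0.14 and 0.41 in adenoma mice. Its changes did not overlap between the pathologies, as in 13.1% of all genes, and the difference was -0.32 (SE 0.156, limma adjusted p = 0.73). That difference was -0.17 without mouse 1805. For Efnb2 late minus early was 0.05, -0.73 and -0.43 in carcinoma mice and -0.11, -0.29 and 0.12 in adenoma mice. Ephb1 was higher late in all 3 adenoma mice, by 0.49, 0.07 and 0.32 (0.29, SE 0.112, limma adjusted p = 0.241), against -0.04, 0.30 and -0.04 in carcinoma mice. Limma called 0 of 10 members for the difference of changes (0% of genes), and 1 of 10 had an unadjusted p under 0.05, against 7.04% of genes.

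The late biopsies were next compared by pathology. Estimates were below 0 for 6 members and above 0 for 4, from -0.52 (Epha2) to 0.35 (Ephb4), and limma, with mouse as a random block, called 0 of 10 members and 0% of genes. At an unadjusted p under 0.05 there were 2 of 10 members, Efnb1 and Efnb2, against 11.7% of genes. Efnb2 was at 9.62, 9.59 and 9.77 log2 in late carcinoma biopsies (mice 2201, 3407 and 3413) and at 10.01, 9.94 and 10.48 in late adenoma biopsies (mice 1755, 1803 and 1805). Every carcinoma value was below every adenoma value, as in 6.12% of genes, and the difference was -0.48 (SE 0.194, 95% interval -0.91 to -0.05, limma adjusted p = 0.41). Without mouse 1805 it was -0.32.

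Efnb1 was at 10.21, 9.95 and 10.05 log2 in late carcinoma and at 10.51, 10.08 and 10.99 in late adenoma biopsies. The adenoma value of mouse 1803 lay among those of the carcinoma mice, and the difference was -0.45 (SE 0.185, limma adjusted p = 0.41), -0.22 without mouse 1805 and -0.68 without mouse 1803. Ephb4 was at 11.20, 11.23 and 11.26 in late carcinoma biopsies and at 10.99, 11.16 and 10.48 in late adenoma biopsies. Its groups did not overlap, as in 8.77% of genes, and mouse 1805 was the lowest of all (difference 0.35, SE 0.166, limma adjusted p = 0.44, and 0.16 without that mouse). Epha2 was at 9.64, 10.38 and 9.67 in late carcinoma and 10.26, 10.18 and 10.80 in late adenoma biopsies (difference -0.52, SE 0.25, limma adjusted p = 0.449, and -0.33 without mouse 1805). The 95% intervals of Epha2 (-1.07 to 0.04) and Ephb4 (-0.01 to 0.72) include 0, as do those of Ephb3 (0.18), Efna4 (0.23), Efna1 (-0.24), Efna2 (-0.23), Epha1 (-0.03) and Ephb1 (0.01). Without mouse 1805 the difference was 0.05 for Efna4 and -0.02 for Efna1, without mouse 1803 it was 0.48 for Efna4, and without mouse 1755 it was -0.44 for Efna1.

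Markers of crypt position were compared in the same samples. The mean of 12 surface colonocyte genes was 8.92, 7.89 and 8.46 log2 in late carcinoma biopsies of mice 2201, 3407 and 3413, and 10.26, 8.61 and 10.67 in late adenoma biopsies of mice 1755, 1803 and 1805. All 12 were lower in carcinoma, 6 at an unadjusted p under 0.05 and 0 after adjustment. Krt20, a keratin of surface cells, differed by -2.95 (SE 0.833) and Cdhr5, a brush border cadherin, by -1.89 (SE 0.521), both with limma adjusted p = 0.401. Of 15 Wnt target and crypt base genes, 14 were higher and 1 lower in carcinoma, with Lgr5, the stem cell receptor, differing by 1.46 (SE 0.501, limma adjusted p = 0.401) and Rnf43, a brake on Frizzled receptors, by 0.68 (SE 0.262, adjusted p = 0.409). The lower gene, named after its value was seen, was Olfm4 (-1.58, SE 0.97, limma adjusted p = 0.536). All 12 epithelial genes were lower in carcinoma, 5 at an unadjusted p under 0.05, with a median of -0.19. In the late biopsy of mouse 1805 the Wnt list was at 9.96, against 10.78 to 11.24 in the other late biopsies, and the epithelial list at 12.75. The part of these markers in the Eph and ephrin values was not tested.

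Early biopsies were compared in the same fit, by the pathology the tumor would later have. Ephb3, Efna4 and Efna2 were higher in tumors later read as carcinoma, with an unadjusted p under 0.05 in 3 of 10 members, against 12% of genes, and 0 of 10 after adjustment (0% of genes). Ephb3 was at 11.12, 10.37 and 10.72 log2 in early carcinoma biopsies (mice 2201, 3407 and 3413) and at 10.49, 10.40 and 10.01 in early adenoma biopsies (mice 1755, 1803 and 1805). The groups overlapped through mouse 3407, and the difference was 0.44 (SE 0.188, limma adjusted p = 0.394). It was 0.25 without mouse 2201, and 0.73 with the array group as a term, whose size rests on mouse 2201 against the other carcinoma mice.

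Efna4, an A-class ligand, was at 10.31, 10.34 and 10.52 log2 in early carcinoma biopsies and 9.83, 10.24 and 9.84 in early adenoma biopsies, with no overlap, as in 10.7% of genes (difference 0.42, SE 0.177, limma adjusted p = 0.387). Efna2 was at 7.61, 8.21 and 7.90 in early carcinoma biopsies and 7.51, 7.57 and 7.55 in early adenoma biopsies, again without overlap (difference 0.36, SE 0.146, limma adjusted p = 0.374). The carcinoma value in the array group of the adenoma mice, that of mouse 2201, was 7.61, next to 7.57 in mouse 1803. The difference was 0.21 without mouse 3407 and 0.15 with the array group as a term. Efna1 was lower, at 10.66, 10.60 and 10.82 in early carcinoma and 10.98, 11.09 and 10.92 in early adenoma biopsies, without overlap, as in 7.31% of genes (difference -0.30, SE 0.179, limma adjusted p = 0.529). Ephb4 (0.32) and Ephb1 (0.23) were also higher, and Efnb1 (-0.13) and Efnb2 (-0.21) lower, within intervals that include 0. Of the other family genes 11 of 11 had estimates above 0, from 0.01 (Ephb6) to 1.17 (Epha7) with a median of 0.10, as did 11974 of all 19938 genes, whose median was 0.04. Epha7 was the 1 gene of them at an unadjusted p under 0.05 (difference 1.17, SE 0.482, limma adjusted p = 0.381). Surface colonocyte genes were at 8.48 to 8.67 in early carcinoma biopsies and 9.99 to 11.03 in early adenoma biopsies, all 12 lower, 9 of them at an unadjusted p under 0.05. Endothelial genes were at 8.79 to 9.89 in early carcinoma and 8.34 to 8.74 in early adenoma biopsies, all 14 higher, 10 at an unadjusted p under 0.05. Mouse 2201, in the array group of the adenoma mice, was at 8.79, next to 8.71 and 8.74 in mice 1755 and 1805. Mice 3407 and 3413, in the second array group, were at 9.52 and 9.89. The part of surface colonocyte and endothelial genes, and of the array group, in these differences was not tested.

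**Figure D3:**
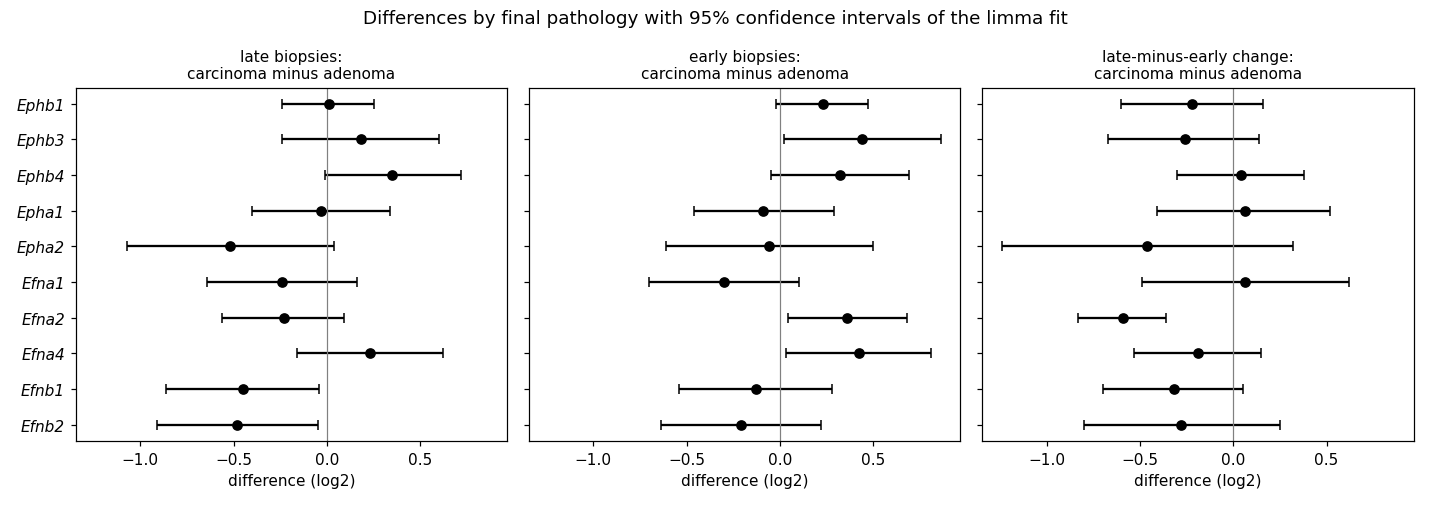
Difference between carcinoma and adenoma (log2, carcinoma minus adenoma) with its 95% confidence interval for each member, in late biopsies, in early biopsies and in the late-minus-early change. Efnb1 and Efnb2 lie left of 0 in late biopsies (-0.45 and -0.48), Ephb3, Efna2 and Efna4 right of 0 in early biopsies, and Efna2 at -0.59 in the change.

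Ranked by their means, the 4 groups were seldom separated by more than the SD. Of the neighbouring groups in these orders, the gap was larger than the SD of both for Efna1 between early adenoma (11.00) and late carcinoma (10.77), for Efna2 between late adenoma (7.70) and early adenoma (7.55), and for Efnb1 between early carcinoma (10.29) and late carcinoma (10.07). For Ephb1 it was so between late adenoma (6.86) and early carcinoma (6.79) and between early carcinoma and early adenoma (6.56). For Ephb3, Ephb4, Epha1, Epha2, Efna4 and Efnb2 no neighbouring groups were set apart in this way. Ephb4 had its highest mean in late carcinoma (11.23), 0.04 above early carcinoma, and Ephb1 was also highest there, by 0.01. Late carcinoma held the lowest mean of Efnb2 (9.66), and also of Epha1, Epha2, Efna2 and Efnb1.

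For some members the mice differed more than the biopsies of a mouse. The SD of the mouse means was 0.27 log2 for Ephb4 and 0.28 for Efna4, against a median difference between late and early biopsy, whatever its sign, of 0.09 and 0.11. Both arrays of mice 1755 and 1805 held the lowest levels of Ephb4, 10.99 and 10.48 late and 10.72 and 10.67 early, whereas the other 8 arrays lay at 11.13 to 11.26. The same 4 arrays held the lowest Efna4, 9.99 and 9.77 late and 9.83 and 9.84 early, and the highest Efnb1, 10.51 and 10.99 late and 10.48 and 10.58 early. Mouse 1803, also an adenoma mouse, lay within the range of the carcinoma mice for Ephb4 (11.16 late and 11.22 early) and Efnb1 (10.08 and 10.22). For Efna4 it was above their 10.31 to 10.52 in the late biopsy (10.61) and below it in the early biopsy (10.24). Because the arrays form clusters of this kind, no pooled correlation between members is given.

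**Figure D4:**
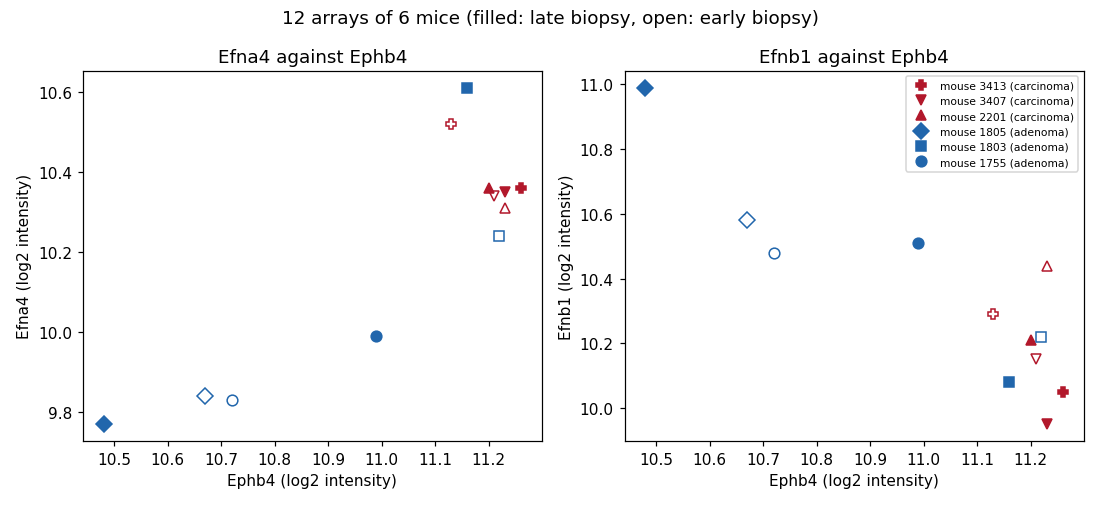
Efna4 (left) and Efnb1 (right) against Ephb4 (log2 intensities) on the 12 arrays; filled symbols are late biopsies, open symbols early ones, carcinoma in red and adenoma in blue. The arrays of mice 1755 and 1805 have Ephb4 at 10.99 or below, with Efna4 at 9.99 or below and Efnb1 at 10.48 or above.

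Genes whose level ran most like that of a member were sought over the 12 arrays, which are 2 of each mouse and so not independent. For Ephb4 these were Ftsj1 (r = 0.963), Notch1 (r = 0.958) and Bcl9 (r = 0.955). For Efnb1 they were Calm3 (r = 0.968), Mgat4b (r = 0.965) and Srxn1 (r = 0.953), and for Efna2 Nhs (r = 0.916), Tln2 (r = 0.909) and Fkbp1a (r = 0.843). For Ephb1 they were Tmem52 (r = 0.889), Sema6b (r = 0.883) and Sipa1l1 (r = 0.883). For Ephb3 they were Ubxn10 (r = 0.898), Serpinf2 (r = 0.894) and Shf (r = 0.894). For Epha1 the list read Ccdc12 (r = 0.921), Clpb (r = 0.892) and Sema4b (r = 0.892), and for Epha2 it read Pgs1 (r = 0.927), Krt13 (r = 0.916) and Oxct2a (r = 0.912). For Efna1 the nearest were Sertad1 (r = 0.948), Atg101 (r = 0.929) and LTO1 (r = 0.928), for Efna4 Tmem198b (r = 0.964), Nlgn2 (r = 0.953) and Fam222b (r = 0.944), and for Efnb2 Cobll1 (r = 0.92), Tgfbrap1 (r = 0.903) and Snx13 (r = 0.894). These are the highest r over all genes searched and describe these arrays alone. For Ephb4, Efna4 and Efnb1 they include the arrays of mice 1755 and 1805, which stood apart in these genes. The late array of mouse 1805 was also the highest of the 12 for Epha2, Efna1 and Efnb2. Its part in the r of these genes was not tested.

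Efna4 lies beside other A-class ligands on chromosome 3, between 89333393 and 89338028 on GRCm38.p6, with Efna3 at 89313899 to 89322939 and Efna1 at 89271730 to 89280951. In early biopsies carcinoma minus adenoma was 0.42 for Efna4, 0.38 for Efna3 (SE 0.452) and -0.30 for Efna1.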

How the data were processed

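Gene expression was measured on 12 Affymetrix mouse gene arrays, with 300 ng of RNA as input, per the labels. The deposited table holds 35557 probe sets, and its range is that of log2 intensities; the authors' summarisation and normalisation are not stated in the labels. Probe sets were named through GEO's platform annotation: 21789 carry 1 symbol, 1621 several and 12147 none, and a RefSeq gene table (GRCm38.p6) changed 0 of 21698 matched symbols. This left 19938 genes, with no filter on dim genes.

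Comparisons used limma 3.58.1 in R 4.3.3 (moderated t, 2-sided, Benjamini-Hochberg over all genes, threshold 0.05), with mouse as a fixed block for changes and as a random block (consensus correlation 0.286) between pathologies. The mouse pairs the arrays: deviations of the 2 arrays of a mouse correlated at 0.11 to 0.527. Each sample is 1 biopsy of 1 mouse, and the number of arrays limits the precision. The fit was tested on simulated data for late against early over all tumors with 19938 genes: it recovered 94% of genes changed by 1 log2 and 95% of those changed by 2, with 9 false calls. Smaller changes, such as all estimates for the members, were not simulated. The simulated noise was independent between genes and held no effect of array group or pathology. Recovery in the measured data, where 0 genes were called in this comparison, can therefore be lower.

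The members, lists and tests were chosen with earlier results of these data known. Named genes are the 10 members, up to 4 of a list by the smallest unadjusted p, and the 3 genes most correlated with a member among those above the 25th percentile, leaving out predicted genes and small RNAs. Lower genes of a list that were named after their values were seen are marked so. Alternatives were no block, the array group, quantile normalization, median centring, averaged probe sets, a filter on dim genes, an intensity trend, age in days, and each mouse left out.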

Additional observations from a re-analysis of the deposited data

Results flagged for a closer look

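The late-minus-early value of Efna2 had opposite signs by final pathology, lower late in all 3 carcinoma mice and higher late in all 3 adenoma mice. The difference of the changes was -0.59, which limma did not call over all genes (adjusted p = 0.561). The late biopsy of mouse 1805 stood below the late biopsies of the other mice in Ephb4, at 10.48, and its gap to the next was 0.651 of the range. The early biopsy of mouse 2201 stood below the other early biopsies in Efnb2, at 9.57, with a gap of 0.693 of the range. Of 30 sets of 6 values checked, 2 had such a value (over 0.625 of the range), and chance alone gives about 1 in 20 sets. In the late biopsy of mouse 1805 Epha2, Efna1, Efnb1 and Efnb2 were the highest and Ephb4 and Efna4 the lowest of the 12 arrays.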

How the results depend on the processing

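No member passed limma's adjusted threshold under any alternative tried, and the number of arrays limits the precision. Each mouse has 1 late and 1 early array, so leaving out the mouse block (the pairing) cannot turn a member estimate. That 0 of 60 turned was fixed by the design. Without the block, 1 member had an unadjusted p under 0.05 over all tumors (0 with the block). In adenoma 2 genes were called (25 with the block). In the fits by pathology, mouse 2201 against mice 3407 and 3413 sets the size of the array group term. The array group term turned 8 of 60 member estimates: over all tumors Ephb3 (-0.07) and Efna4 (-0.08), in adenoma Epha1 (0.01), in the difference of changes Ephb4 (-0.03), Epha1 (-0.09) and Efnb2 (0.15), and in early biopsies Epha1 (0.14) and Epha2 (0.35). With it 0 genes were called in adenoma, and 2 members had an unadjusted p under 0.05 over all tumors, 2 in carcinoma and 2 in the difference. Age as a term, per 100 days, gave -0.01 for Ephb4 and 0 for Efnb1, and called 33 genes. Median centring gave -0.04 for Ephb1 in late biopsies, 57 genes in adenoma, and 2 members in carcinoma and 1 in early biopsies at an unadjusted p. Quantile normalization gave 1 such member over all tumors and 2 in carcinoma, averaged probe sets 0 in adenoma, and the filter on dim genes left 13 genes called in adenoma. The cause of these shifts was not tested.

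With each mouse left out in turn, genes called ranged from 0 to 2 over all tumors, 0 to 78 in adenoma (0 without mouse 1755, 1803 or 1805, 78 without mouse 2201), 0 to 1 in carcinoma, 0 to 395 in late biopsies (395 without mouse 1803) and 0 to 67 in early biopsies (67 without mouse 1803). Members at an unadjusted p ranged from 0 to 3 over all tumors, 0 to 2 in adenoma, 1 to 2 in carcinoma, 1 to 2 in the difference, 0 to 4 in late and 0 to 3 in early biopsies. Over all tumors, estimates that turned ran from -0.08 to 0.05 for Ephb3, -0.02 to 0.07 for Ephb4, 0 to 0.10 for Efna4, -0.06 to 0.12 for Efna1 and -0.26 to 0.04 for Epha2. In adenoma they ran from -0.12 to 0.10 for Ephb4, -0.20 to 0.01 for Efnb2, -0.02 to 0.25 for Ephb3, -0.13 to 0.28 for Epha2, -0.25 to 0.20 for Efna1 and -0.06 to 0.22 for Efnb1. In carcinoma they ran from -0.04 to 0.13 for Ephb1, 0 to 0.08 for Ephb4 and -0.08 to 0.02 for Efna4. In the difference they ran from -0.13 to 0.32 for Efna1, -0.12 to 0.24 for Epha1 and -0.06 to 0.16 for Ephb4. They ran from -0.21 to 0.10 for Epha1 and -0.07 to 0.05 for Ephb1 in late biopsies, and from -0.21 to 0.08 for Epha2, -0.36 to 0.02 for Efnb2 and -0.23 to 0.03 for Epha1 in early biopsies.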
